A study of Mus musculus with 14 samples.

Results

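LSD1, the histone demethylase encoded by Kdm1a, works in a complex with CoREST proteins and histone deacetylases, and 9 genes of this family were followed here through the mouse hippocampus. They are the demethylases Kdm1a and Kdm1b, the CoREST scaffolds Rcor1, Rcor2 and Rcor3, the deacetylases Hdac1 and Hdac2, and the subunits Phf21a and Hmg20b. They were chosen by gene symbol, and all 9 had a value in every library, among 18722 genes with any value and 16569 genes tested. The 14 libraries came from hippocampi of C57BL6 mice aged 30 days. The mice were KMT2D+/+ (wild type) or KMT2D+/bGeo (called mutant below), a heterozygous gene trap allele of the H3K4 methyltransferase gene Kmt2d and not a full knockout. They were gavaged for 2 weeks from 2 weeks of age with the LSD1 inhibitor TAK-418 at 1 mg/kg/day in methylcellulose, or with methylcellulose alone. The labels give 3 wild-type and 3 mutant samples with vehicle, and 5 wild-type and 3 mutant samples with TAK-418. Every group had gavage and methylcellulose. The labels number the samples but do not state that each is a separate mouse, so the p-values measure the spread between these samples. The series text gives fewer mice per group than the 5 samples labelled as treated wild types. Whether those 5 are independent mice is therefore not known.

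LSD1 removes methyl groups from mono- and dimethylated lysine 4 of histone H3, using FAD as its cofactor. A CoREST protein bridges LSD1 to the nucleosome and binds HDAC1 or HDAC2, which remove acetyl groups from histones. The transcription factor REST brings this complex to neuronal genes in cells that are not neurons, and in neurons a splice form of LSD1 with an added microexon has been described. KMT2D adds methyl groups at the same lysine, and loss of a copy of its gene causes Kabuki syndrome in people. An inhibitor of LSD1 acts on the protein, and these libraries measured only RNA.

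The abundance of each assembled transcript was summed per gene and scaled between libraries, and is called scaled abundance here. Its unit is not named in the sources used here. That it corrects for transcript length and library depth is inferred. Relative depth, the inverse of the step between neighbouring values in arbitrary units, was 35.1 to 60 in 13 libraries and 168 in wild-type TAK-418 library 1. Summed choroid plexus markers reached 6478 in wild-type vehicle library 3 and 5044 in mutant vehicle library 1, so results were also computed without these 2 libraries. The sums were 909 in mutant vehicle library 3 and 609 in mutant TAK-418 library 1, against at most 44.3 in the remaining libraries. Those results therefore still include mutant libraries with raised choroid plexus markers. Markers of hippocampal neurons were detected in all 14 libraries, with 5 of 5 listed genes and summed values of 319 to 427. Kmt2d, the mutated gene, had a scaled abundance of 13.99 ± 0.23 (SD, n = 3) in vehicle wild types, 11.9 ± 2.1 (n = 3) in vehicle mutants, 15.2 ± 2.4 (n = 5) in treated wild types and 12.4 ± 2.7 (n = 3) in treated mutants. Over both treatments it was 0.26 lower in mutants on the log2 scale (limma, unadjusted p = 0.042, adjusted p = 0.85), and the genotypes' ranges overlapped. Whether the deposited values cover the RNA downstream of the trap was not tested.

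Kdm1a (chromosome 4, 136550540 to 136602723, minus strand, GRCm38) encodes the target of the drug, and its level was the steadiest of the 9 genes. Scaled abundance was 33.7, 34.4 and 32.2 in the vehicle wild types and 29.9, 34.9 and 33.3 in the vehicle mutants. It was 35.0, 35.1, 35.8, 33.9 and 33.2 in the treated wild types and 33.9, 34.2 and 34.1 in the treated mutants. The 4 groups overlapped, and the lowest value belonged to mutant vehicle library 1, one of the pair rich in choroid plexus RNA. Over all 14 libraries the mean was 33.8 ± 1.4 (SD, n = 14), a coefficient of variation of 4.28%. Pooled over genotypes, TAK-418 minus vehicle was 0.054 on the log2 scale, with a 95% interval of -0.024 to 0.13 (limma, adjusted p = 0.71). In fold terms on the log2(value + 0.9) scale, that interval runs from 0.984 to 1.09. Pooled over treatments, mutant minus wild type was -0.028, with an interval of -0.11 to 0.050 (limma, adjusted p = 0.92).

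**Figure D1:**
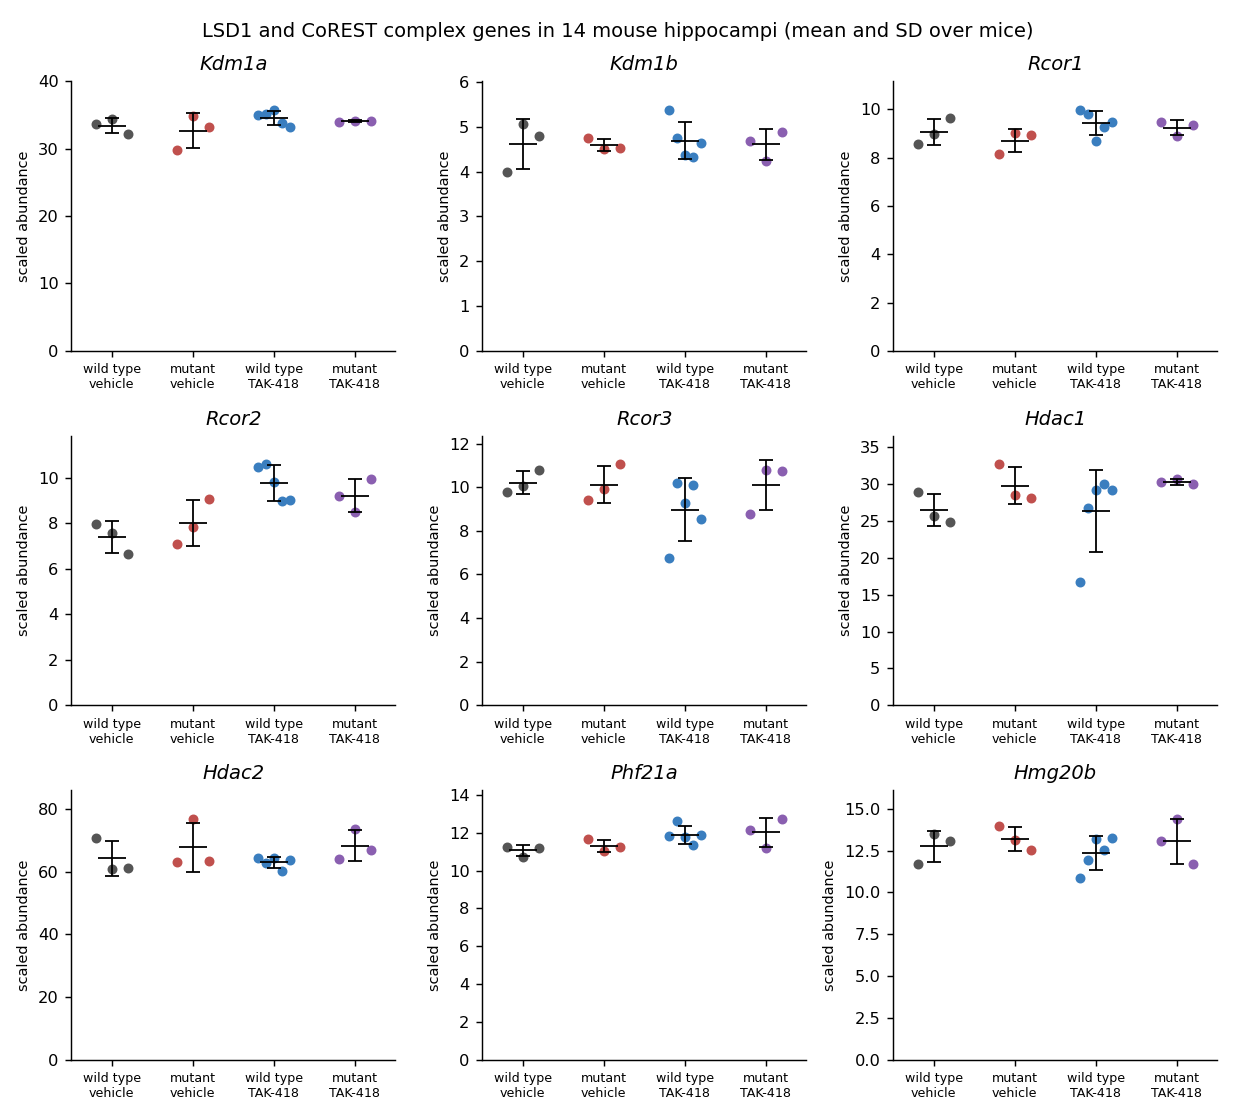
Scaled abundance (vertical axis, arbitrary units starting at 0) of each of the 9 genes in each library, by group, with black bars for the mean and SD over the 3 or 5 libraries. Rcor2 in treated wild types (8.97 to 10.6) sits above vehicle wild types (6.64 to 7.98), and a single treated wild type lies low for Hdac1 at 16.7.

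The assembled Kdm1a transcripts came in a pair of main forms that differ by a cassette exon of 60 bases at chr4:136582040-136582099 (GRCm38, minus strand). The exon is exon 3 of 20 in the annotated transcript ENSMUST00000105847.7, it is coding, and its length is a multiple of 3. A second annotated cassette exon, of 12 bases at chr4:136563438-136563449, lies in ENSMUST00000170979.1 and matches the size of the neuronal microexon known as 8a. Both are shown because they define the forms of the drug's target, with the exon in capitals and up to 30 bases of each neighbouring exon in lower case, from GENCODE M21 transcripts.
Kdm1a 60-base exon: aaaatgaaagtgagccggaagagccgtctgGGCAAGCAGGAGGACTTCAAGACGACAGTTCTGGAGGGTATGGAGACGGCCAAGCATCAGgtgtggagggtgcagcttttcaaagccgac
Kdm1a 12-base exon: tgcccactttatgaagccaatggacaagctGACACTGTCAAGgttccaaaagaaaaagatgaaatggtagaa

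No assembled Kdm1a transcript in any of the 14 libraries contained the 12-base exon, so its share could not be measured and the test planned for it gave no value. The shortest internal exon assembled for Kdm1a was the one of 60 bases, and the shortest for any of the 9 genes was 21 bases, in Kdm1b. These files list assembled transcripts only, so absence from them is no measure of the RNA. The 60-base exon was instead compared between groups, a choice made after this was seen. Transcripts with and without it were assembled in all 14 libraries.

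The form without the 60-base exon was the more abundant in 13 of 14 libraries. The share that included the exon was taken over the abundance of Kdm1a transcripts spanning the neighbouring exons. It was 25.8%, 37.8% and 38.0% in the vehicle wild types and 56.4%, 26.9% and 48.1% in the vehicle mutants. In the treated wild types it was 44.0%, 29.2%, 26.7%, 35.4% and 28.8%, and in the treated mutants 27.2%, 45.1% and 38.6%. All groups overlapped, and the highest share again belonged to mutant vehicle library 1. Group means were 33.9% ± 7.0 (SD, n = 3), 43.8% ± 15.2 (n = 3), 32.8% ± 7.1 (n = 5) and 36.9% ± 9.1 (n = 3) in the same order. Mutant minus wild type over both treatments was 7.03 percentage points (exact permutation test within treatments, two-sided, p = 0.22, adjusted over 6 contrasts 0.72). Drug minus vehicle over both genotypes was -3.96 points (exact permutation test, p = 0.49, adjusted 0.72), and it was 0.22 points without the 2 choroid-rich libraries. Leaving out each library in turn, the genotype difference ran from 3.89 points without mutant vehicle library 1 to 11.3 without mutant vehicle library 2. The drug difference ran from -0.81 to -8.18 points without the same libraries. With 3 libraries against 3 such a test cannot give a p under 0.1.

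**Figure D2:**
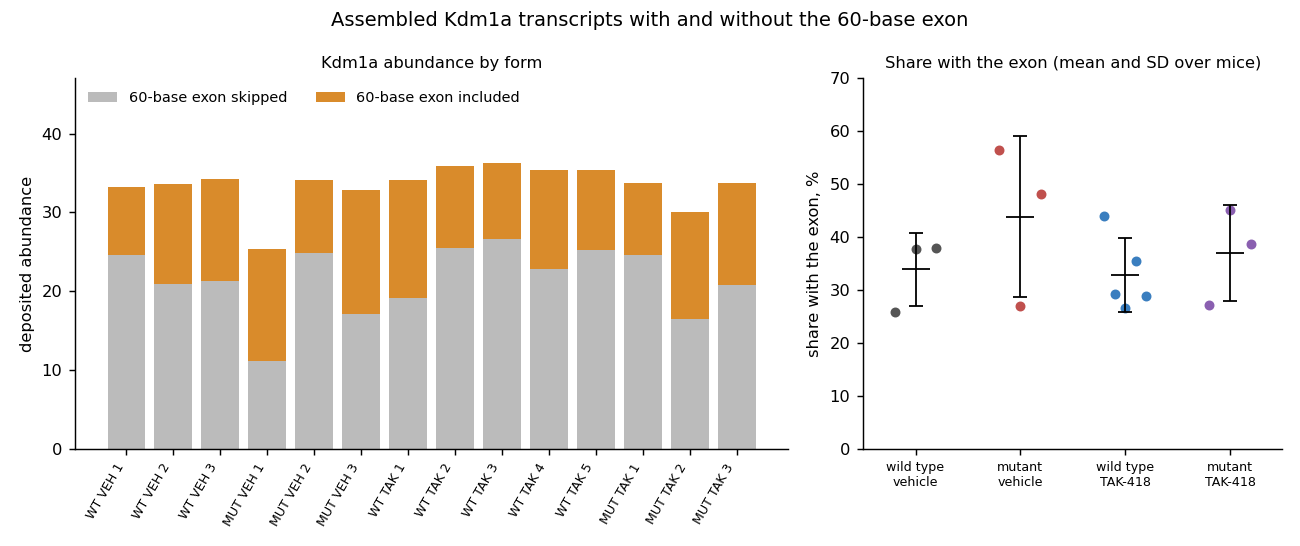
Left, deposited abundance (vertical axis, authors' abundance units) of Kdm1a transcripts without (grey) and with (orange) the 60-base exon, stacked for each of the 14 libraries. Right, the share with the exon in percent per library, with mean and SD by group; values run from 25.8% to 56.4% and all 4 groups overlap.

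Kdm1b (chromosome 13, 47043499 to 47085279, plus strand) encodes LSD2, the second flavin-dependent histone demethylase, which acts on the same histone mark and is best known from the oocyte, where it is needed to set maternal imprints. It had the lowest level of the family, 4.64 ± 0.35 (SD, n = 14), and ranged from 3.99 to 5.38. The group means lay between 4.60 and 4.69. TAK-418 minus vehicle was 0.010, with a 95% interval of -0.13 to 0.15 on the log2 scale (limma, adjusted p = 0.97), and mutant minus wild type was -0.0099 (-0.15 to 0.13, adjusted p = 0.99). The log2 ratio of Kdm1a to Kdm1b was 2.65 to 3.08, and its mean differed between drug and vehicle by 0.043 (exact permutation test, p = 0.57, adjusted 1). Kdm1b also had a cassette exon, of 172 bases at chr13:47068464-47068635, which is coding and leaves a remainder of 1 when divided by 3. Transcripts skipping it were assembled in 9 of 14 libraries, and the share that included it was 71.5% to 100%.

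The CoREST scaffolds had like scaled abundances: Rcor3 at 9.73 ± 1.1, Rcor1 at 9.16 ± 0.51 and Rcor2 at 8.76 ± 1.2 (SD, n = 14 each). Rcor3 exceeded Rcor1 in 11 of 14 libraries and Rcor1 exceeded Rcor2 in 9 of 14, so on this scale their order was not separated from the spread. The authors' deposited group values differed from this. They were 11.1 to 12.6 for Rcor3, 6.17 to 6.71 for the Rcor1 locus and 6.31 to 8.17 for the tested Rcor2 locus. There Rcor3 lay above its paralogs in every group, and the reason for the difference between the measures was not tested. Rcor1 encodes the first described CoREST protein, the corepressor of REST. Rcor2 is best known from embryonic stem cells and neural progenitors, and Rcor3 encodes a paralog described as a weaker partner or competitor in blood cells.

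Rcor2 (chromosome 19, 7267325 to 7275225, plus strand) showed the largest difference with the drug among the 9 genes. Scaled abundance was 7.98, 7.56 and 6.64 in the vehicle wild types and 7.08, 7.85 and 9.09 in the vehicle mutants. It was 10.5, 10.6, 9.80, 8.97 and 9.01 in the treated wild types and 9.19, 8.48 and 9.94 in the treated mutants. Every treated wild type exceeded every vehicle wild type, whereas the treated and vehicle mutants overlapped. Exactly 1 transcript of 12 exons was assembled for Rcor2 in each library, so no choice among isoforms entered these values. Drug minus vehicle was 0.36 ± 0.090 (SE) in wild types, a 1.29-fold difference (limma, unadjusted p = 0.0016, adjusted p = 0.28). It was 0.19 ± 0.10 in mutants (unadjusted p = 0.089, limma), where it fell to 0.11 without mutant vehicle library 1, and 0.27 ± 0.067 over both genotypes, a 1.21-fold difference (limma, unadjusted p = 0.0016, adjusted p = 0.33). None of these passed the threshold of 0.05 on the adjusted p. The difference between the drug effects of the genotypes was -0.18 (interaction, limma, unadjusted p = 0.21), so it was not shown that they differ, and it ran from -0.25 to -0.094 when each library was left out in turn, the ends being without mutant vehicle libraries 1 and 3.

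The values of Rcor2 were lowest in the 2 libraries rich in choroid plexus RNA, 6.64 and 7.08. Without them the drug difference over both genotypes was 0.20 (limma, adjusted p = 0.66). The summed markers of newborn neurons (Dcx, Sox11, Igfbpl1 and Neurod1, with Sox11 at 0 in some libraries) were also higher in treated than in vehicle wild types, at 41.6 to 47.5 against 32.0 to 39.2. In mutants they were 39.3 to 42.5 with the drug and 37.7 to 42.6 without it. The summed markers of dividing cells (Mki67, Top2a and Cdk1) went the other way in wild types, at 3.28 to 5.98 with the drug against 6.25 to 7.57 without it. In mutants they were 5.13 to 6.98 and 6.45 to 9.08. The part of these cell types in the Rcor2 difference was not tested, and in bulk tissue fewer cells of a type and less RNA per cell cannot be told apart. In the authors' deposited tables the smallest p among these genes was also that of Rcor2, 0.020 for vehicle mutants over treated wild types, with group values of 6.56 and 8.11 and a q of 0.69. In the authors' deposited table of treated mutants over vehicle wild types, Rcor2 had 7.83 against 6.36 (p = 0.066, q = 1.00). The groups in these comparisons differ in genotype as well as drug, and no deposited table compares drug with vehicle within a genotype. These tables were made from the same libraries, so they are no independent measurement.

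Rcor1 (chromosome 12, 111039351 to 111115901, plus strand) was 8.17 to 9.98 over the 14 libraries. TAK-418 minus vehicle was 0.066, with a 95% interval of -0.030 to 0.16 (limma, adjusted p = 0.71). The log2 ratio of Rcor1 to Rcor2, which does not depend on scaling between libraries, was 0.10, 0.25 and 0.54 in the vehicle wild types and 0.21, 0.20 and -0.023 in the vehicle mutants. It was -0.073, -0.11, -0.18, 0.044 and 0.072 in the treated wild types and 0.046, 0.067 and -0.088 in the treated mutants. Treated wild types all lay below vehicle wild types. The ratio was 0.34 lower with the drug in wild types (exact permutation test, two-sided, p = 0.018, the smallest that 3 against 5 can give, adjusted over 18 tests 0.16). Without wild-type vehicle library 3 that difference was -0.22 (adjusted p = 0.43, exact permutation test). Over both genotypes the difference was -0.23 (exact permutation test within genotypes, p = 0.0080, adjusted 0.14). Without mutant vehicle library 3 the latter was -0.27 with an adjusted p of 0.032 by the same exact permutation test, and without the 2 choroid-rich libraries it was -0.15 with an adjusted p of 0.51.

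**Figure D3:**
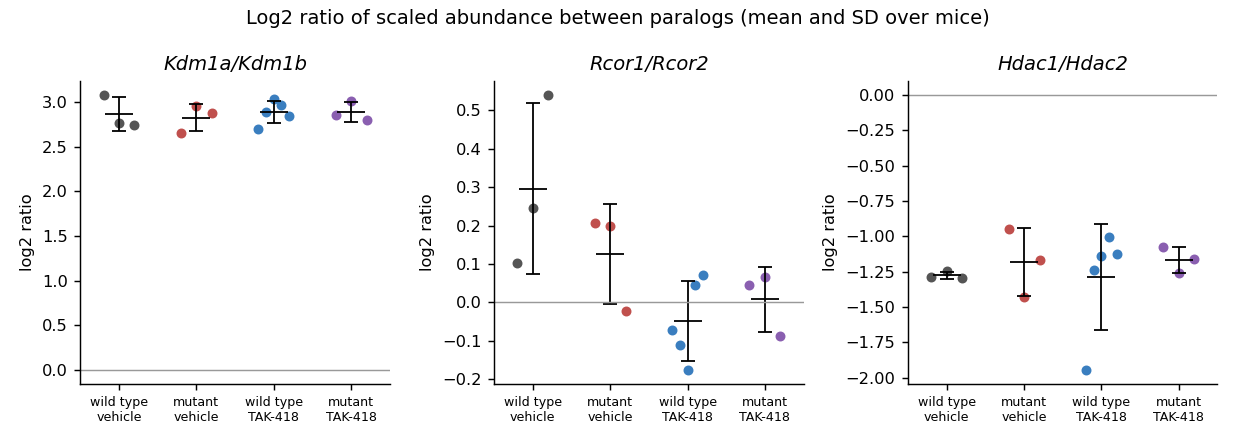
Log2 ratio of scaled abundance within each library (vertical axis) for Kdm1a/Kdm1b, Rcor1/Rcor2 and Hdac1/Hdac2, by group, with mean and SD over libraries. For Rcor1/Rcor2 the 5 treated wild types (-0.18 to 0.072) lie below the 3 vehicle wild types (0.10 to 0.54), and for Hdac1/Hdac2 a single treated wild type lies apart at -1.94.

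Rcor3 (chromosome 1, 192098546 to 192138062, minus strand) was the most varied in its assembled forms, with 4 to 9 transcripts per library. Its scaled abundance ranged from 6.74, in the deepest library, to 11.1. Drug minus vehicle was -0.093, with an interval of -0.29 to 0.10, and mutant minus wild type was 0.075, with an interval of -0.12 to 0.27 (limma, adjusted p = 0.80 and 0.92). Neither direction held under every processing alternative tried. A coding exon of 58 bases, exon 10 of 11 in ENSMUST00000110849.9, was assembled in both an included and a skipped form in 12 of 14 libraries. It is shown because its length is no multiple of 3, so that the forms differ in reading frame after it, and it lies at chr1:192108644-192108701 on the minus strand.
Rcor3 58-base exon: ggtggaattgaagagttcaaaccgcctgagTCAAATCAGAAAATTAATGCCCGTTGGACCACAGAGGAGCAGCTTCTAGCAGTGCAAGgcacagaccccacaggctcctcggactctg
Its share was taken only over Rcor3 transcripts that span the neighbouring exons, and it ran from 0% to 100% within the treated wild types alone. In wild-type TAK-418 library 5, at 100%, those transcripts held 3.77 of a total deposited Rcor3 abundance of 9.11. The means were 28.6% ± 21.0 in vehicle wild types, 44.5% ± 44.2 in vehicle mutants, 41.1% ± 43.5 in treated wild types and 61.3% ± 7.0 in treated mutants (SD, n = 3, 3, 5 and 3). The SD within a group ran from 7.0 points in treated mutants to 44.2 in vehicle mutants, and no comparison was tested.

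Of the deacetylases, Hdac2 (chromosome 10, 36974544 to 37001889, plus strand) had the highest level of the family at 65.4 ± 5.0 (SD, n = 14), above 91.1% of the genes tested, and its range of 60.1 to 76.8 lay wholly above that of Kdm1a. Hdac1 (chromosome 4, 129516104 to 129542713, minus strand) followed Kdm1a at 28.0 ± 3.8 and was below it in 13 of 14 libraries. The products of both genes serve in the CoREST, NuRD and Sin3 complexes, so their RNA is not particular to the LSD1 complex.

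Hdac1 was 29.0, 25.7 and 24.9 in the vehicle wild types, 32.7, 28.5 and 28.2 in the vehicle mutants, 16.7, 26.7, 29.2, 30.0 and 29.2 in the treated wild types, and 30.3, 30.8 and 30.0 in the treated mutants. The value of 16.7 belongs to the deepest library. There the main assembled transcript was 3393 bases long, against 1820 to 1908 in the other 13, and it ran over 1269 bases of Marcksl1, a gene on the opposite strand. On the inferred scale abundance is divided by transcript length. Abundance times length of Hdac1 in that library was 54.5, within the 46.8 to 62.8 of the other libraries. Mutant minus wild type was 0.19 over both treatments, with a 95% interval of -0.060 to 0.45 (limma, adjusted p = 0.88), and the drug difference was -0.0029 (-0.26 to 0.25, adjusted p = 1.00). The treated mutants all exceeded the vehicle wild types, by a mean log2 difference of 0.19 (limma, adjusted p = 1).

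For Hdac2, mutant minus wild type was 0.091, with an interval of -0.029 to 0.21, and the drug difference was -0.0056, with an interval of -0.13 to 0.11 (limma, adjusted p = 0.88 and 0.98). Its highest values, 76.8 in mutant vehicle library 2 and 73.7 in mutant TAK-418 library 2, came from the 2 libraries in which the gene was assembled in pieces, with a main transcript of 6 exons in place of 14. With the highest transcript alone the genotype difference was -0.094, so its direction depends on that step. The Hdac1 to Hdac2 log2 ratio differed between drug and vehicle by 0.0020 (exact permutation test, p = 0.98, adjusted 1).

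Phf21a (chromosome 2, 92093117 to 92364666, plus strand) encodes BHC80, the subunit that binds histone H3 with unmethylated lysine 4, the product of LSD1. It was 11.3, 10.7 and 11.2 in the vehicle wild types and 11.7, 11.0 and 11.2 in the vehicle mutants. It was 11.8, 12.6, 11.8, 11.4 and 11.9 in the treated wild types and 12.1, 11.2 and 12.7 in the treated mutants. As for Rcor2, the treated wild types lay wholly above the vehicle wild types while the mutant groups overlapped. The drug difference over both genotypes was 0.088 ± 0.037 (SE), a 1.06-fold difference on the log2(value + 0.9) scale. Its interval was 0.0061 to 0.17 (limma, unadjusted p = 0.037, adjusted p = 0.58). The drug difference was -0.068 when abundance was multiplied by transcript length, so its direction depends on whether length is multiplied in. On abundance times length the lowest value, 50.2, was that of mutant TAK-418 library 3, whose main transcript was assembled at 3934 bases. On that scale the wild-type groups overlapped, at 68.3 to 80.9 with the drug and 71.4 to 76.5 without it. Hmg20b (chromosome 10, 81346048 to 81350480, minus strand) encodes BRAF35, a DNA-binding subunit with a high mobility group box. It was 12.8 ± 0.96 (SD, n = 14), with a drug difference of -0.031 (-0.16 to 0.10) and a genotype difference of 0.060 (-0.070 to 0.19), at adjusted p of 0.90 and 0.90 in limma.

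Across the family, none of the 9 genes was called at an adjusted p under 0.05 in any of the 9 contrasts fitted with limma. Over all genes tested the share called was 0.0121% for the drug over both genotypes and for genotype under TAK-418, 0.00604% for 5 other contrasts and 0% for genotype under vehicle and for vehicle mutants against treated wild types. At an unadjusted p under 0.05, 2 of the 9 were higher with the drug over both genotypes, Rcor2 and Phf21a, and none was lower, while 4.82% of all genes tested were higher and 3.45% lower. The count was 0 in either direction for genotype over both treatments, where 5.85% of all genes passed. In the wild types, 2 of the 9 had drug and vehicle values that did not overlap, both higher, against 3.93% of all genes tested. They were Rcor2 and Phf21a, and on abundance times length the values of Phf21a did overlap. Between treated mutants and vehicle wild types, the 2 that did not overlap were Rcor2 and Hdac1, both higher in treated mutants, as were 5.53% of all genes. The comparisons share their control libraries and are not independent of each other. In the authors' deposited tables none of the 10 tested loci of these genes had a q under 0.05 in any of 4 comparisons, where 0.218%, 0.224%, 0.324% and 0.611% of all tested loci did.

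**Figure D4:**
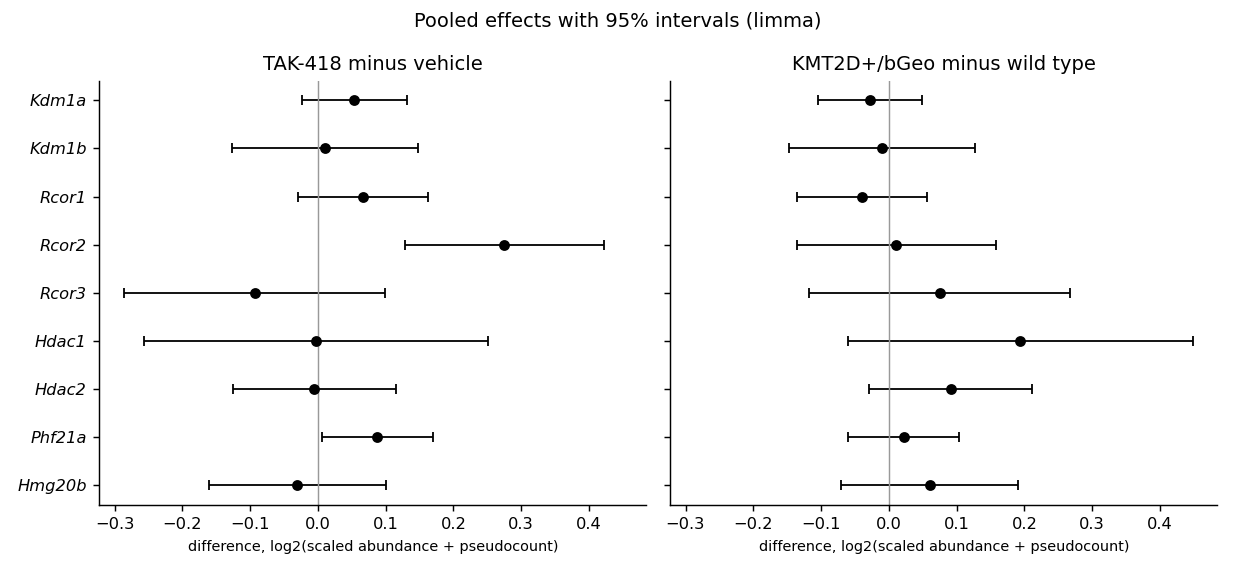
Difference on the log2(scaled abundance + pseudocount) scale (horizontal axis) with its 95% interval from limma for each of the 9 genes, for drug over both genotypes (left) and genotype over both treatments (right). The intervals of Rcor2 (0.13 to 0.42) and Phf21a (0.0061 to 0.17) lie above 0 on the left, and none excludes 0 on the right.

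The order of mean levels over 14 libraries was Hdac2, Kdm1a, Hdac1, Hmg20b, Phf21a, Rcor3, Rcor1, Rcor2 and Kdm1b, compared on the per-length scale. Only the steps from Hdac2 to Kdm1a, from Hdac1 to Hmg20b and from Rcor2 to Kdm1b separated all libraries of both neighbours. The demethylase itself thus had a higher level than any of the scaffolds, and the mean level of Kdm1b lay above only 37.7% of the genes tested.

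Over the 14 libraries the genes whose log2 level was most like that of Kdm1a, by Pearson's r among 13269 genes with a value in all of them, were Vps37d (0.88), AI837181 (0.86), Tti2 (0.86), Tmem115 (0.84) and Dio2 (0.84). Of the family, Rcor2 came nearest at 0.65, rank 199, and the other members lay between -0.37 and 0.40. These points share the scaling of each library and the 4 groups, and the range of Kdm1a itself is narrow.

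Genes that recruit or accompany LSD1 were read from fixed lists in the same fit, and no listed gene was called in any contrast. Of 18 recruiters and partners, 15 were tested, since Gfi1, Gfi1b and Insm1 had no assembled transcript. Over both treatments 1 of the 15 was higher in mutants at an unadjusted p under 0.05, as were 2.83% of all genes. It was Snai1, a repressor of epithelial genes that binds LSD1, at 0.41 (limma, adjusted p = 0.73). Snai1 was listed at 0 in 8 of 14 libraries and was at most 0.802 elsewhere, below the pseudocount. Its genotype difference was 0.78 under vehicle and 0.037 under TAK-418 (interaction, limma, adjusted p = 0.98). Ctbp1, a corepressor, had 0.096 (limma, adjusted p = 0.85). With the drug over both genotypes none of the 15 passed that level, and the smallest p belonged to Snai1 at -0.21 and to Zmym2, a zinc finger partner of CoREST, at 0.093 (limma, adjusted p = 0.68 and 0.72).

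Of 12 genes of NuRD, the nucleosome remodelling and deacetylase complex that shares HDAC1 and HDAC2, 11 were tested, and Mta2 had a value in 1 library only. At an unadjusted p under 0.05, 1 of the 11 was higher in mutants, as were 2.83% of all genes, and 1 was higher with the drug, as were 4.82%. Mbd2, a reader of methylated DNA, was 0.52 in mutants over wild types (limma, unadjusted p = 0.016, adjusted p = 0.82), with values of 19.4 to 20.7 in 5 wild types and 34.6 to 37.7 in all other libraries, and Chd5, a neuronal remodeller, was -0.095 (adjusted p = 0.88, limma). With the drug Mta1, a scaffold of the complex, was 0.11 (limma, unadjusted p = 0.027, adjusted p = 0.55) and Chd3, a remodeller, was 0.061 (adjusted p = 0.71). The drug difference of Mta1 was 0.22 in wild types and 0.010 in mutants (interaction, limma, unadjusted p = 0.040, adjusted p = 0.98). The other class I deacetylases, Hdac3 and Hdac8, each had 0.11 for genotype (limma, adjusted p = 0.88) and -0.050 and -0.014 for the drug (adjusted p = 0.88 and 0.97).

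All 24 listed neuronal genes known as REST targets were tested. With the drug over both genotypes 20 of 24 had a difference above 0, with a median of 0.060 against -0.00027 over all genes tested. Some of these genes varied widely within a group, such as Snap25 at 257 to 1054 and Grin2a at 6.34 to 138 in the treated wild types. Both choroid-rich libraries are vehicle libraries, and the result of this list without them is not given here. At an unadjusted p under 0.05, 2 of the 24 were higher and 1 was lower, against 4.82% higher and 3.45% lower among all genes tested. The 2 higher were Vamp2 and Syn1, which encode synaptic vesicle proteins, at 0.11 each (limma, adjusted p = 0.40 and 0.53). For Syn1 it was 0.23 in wild types and -0.0091 in mutants (interaction, limma, unadjusted p = 0.014, adjusted p = 0.98). For genotype over both treatments 8 of 24 were above 0, with a median of -0.037 against 0.0029 over all genes. Syn1 was -0.095 and Syt4, a synaptotagmin, was -0.083 (limma, adjusted p = 0.85 and 0.86).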

How the data were processed

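Hippocampal RNA was sequenced from 14 libraries made with NEBNext Ultra kits. Which library had the Ultra and which the Ultra II kit is not given in the sources used here. FastQC, TopHat2 2.1.0 and the mm10 build are named in the submitters' processing notes. Transcripts were assembled with CLASS 2.1.7 and deposited by the authors with an abundance score per transcript, per the file headers. How the authors counted shared reads or strand is not given in the sources used here. The authors also deposited 4 tables with the Cuffdiff column layout over 81411 loci, which hold 1 FPKM value per group, a log2 fold change and p- and q-values, per the file headers. These tables give no value per library, and how they combined the libraries of a group is not given in the sources used here.

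Transcripts were assigned to GENCODE M21 genes by a shared intron, or for single-exon transcripts by at least 50% overlap on the same strand. Abundances were summed per gene and scaled by the median of ratios, using the 13273 genes assembled in every library. Genes assembled in at least 3 libraries were tested with limma 3.58.1 in 1 fit with 4 group means, on log2(value + 0.9). The pseudocount of 0.9 equals percentile 10 of the nonzero values. P-values were adjusted by Benjamini and Hochberg over 16569 genes with a threshold of 0.05. The fit was tested on simulated data. Exon shares and paralog ratios were compared by exact permutation tests over libraries, adjusted over 6 and 18 tests. The planned test of the 12-base Kdm1a exon was replaced by the 60-base exon. The columns of the deposited tables were checked against the libraries, and all 8 lay closest to the group they are named for. The genes and lists were chosen with earlier results of these data known. Members, Kmt2d, every listed gene called, the 2 listed genes per list with the smallest p for genotype and for drug, and the 5 genes most like Kdm1a are named. A result of 1 listed gene is not reported here. The alternatives tried were other scalings, pseudocounts and filters, the highest transcript, multi-exon transcripts, array weights, fewer libraries and, added after seeing the data, abundance times length.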

Additional observations from a re-analysis of the deposited data

Results flagged for a closer look

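Outlying libraries were looked for in the 5 treated wild types, the only group of 4 or more, over 13 measures, where chance marks about 1 in 20. Hdac1 stood apart in wild-type TAK-418 library 1, with a scaled abundance of 16.7 against 26.7 in the nearest library, a gap of 0.753 of the group's range. The Hdac1/Hdac2 log2 ratio of the same library was -1.94 against -1.24 in the nearest one. This library has the greatest depth and the Hdac1 transcript of 3393 bases. On abundance times length its Hdac1 value was 54.5, and on that scale wild-type TAK-418 library 2 stood apart for Hdac1, at 48.6 against 54.5. Rcor3 also stood apart on that scale in library 1, above the nearest value of 39.8 by 0.742 of the range, so 2 of the 9 genes had a library apart.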

How the results depend on the processing

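No paired analysis was possible because the labels number the samples without pairing them across groups. None of the 9 genes was called in any of 9 contrasts under any of the 231 alternative values, nor in the authors' deposited tables at a q of 0.01. Of 527 alternative values of 21 log2 differences of the members, 479 kept their direction, and the smallest adjusted p was 0.16. The Rcor2 difference with the drug over both genotypes ran from 0.15 with the pseudocount 10 times larger to 0.33 with upper-quartile scaling.

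No reversed difference had passed an adjusted p of 0.05, and the cause of the reversals was not tested. With the highest transcript only, genotype differences became 0.17 for Kdm1b, -0.019 for Rcor3, -0.094 for Hdac2 and -0.043 for Hmg20b, and drug differences -0.21 for Kdm1b and -0.089 for the Hdac1/Hdac2 ratio. With abundance times length, drug differences became -0.015 for Kdm1b, 0.080 for Rcor3, 0.058 for Hdac1 and -0.068 for Phf21a, and the genotype difference of Phf21a -0.088. With upper-quartile scaling, drug differences became 0.051 for Hdac1, 0.050 for Hdac2 and 0.022 for Hmg20b, and the genotype difference of Rcor2 -0.0073. With no scaling, which moved the median genotype difference of all genes to -0.074, genotype differences became -0.070 for Rcor2, -0.0083 for Rcor3, -0.062 for Phf21a and -0.025 for Hmg20b, and drug differences 0.019 for Hdac1 and 0.016 for Hdac2. Multi-exon transcripts alone gave 0.0038 for Rcor3 with the drug, and the larger pseudocount and array weights gave 0.00062 and 0.037 for Hdac1. Without the 2 choroid-rich libraries the genotype difference of Rcor1 was 0.0016, and drug differences were 0.0088 for Hdac1, -0.030 for the Kdm1a/Kdm1b ratio and 0.22 points for the Kdm1a 60-base exon share. The unweighted share of that exon gave -0.56 points for genotype and 6.11 for the drug.

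Leaving out each library in turn, genotype differences ran from -0.052 to 0.0028 for Kdm1a, -0.052 to 0.019 for Kdm1b, -0.032 to 0.049 for Rcor2, -0.049 to 0.037 for the Kdm1a/Kdm1b ratio and -0.10 to 0.0049 for the Rcor1/Rcor2 ratio. Drug differences ran from -0.032 to 0.040 for Kdm1b, -0.029 to 0.073 for Hdac1, -0.034 to 0.040 for Hdac2, -0.065 to 0.0050 for Hmg20b, -0.0011 to 0.097 for Kdm1a/Kdm1b, -0.28 to -0.17 for Rcor1/Rcor2 and -0.060 to 0.084 for Hdac1/Hdac2. The Rcor1/Rcor2 difference passed 0.05 only without mutant vehicle library 3, at -0.27 (adjusted p = 0.032, exact permutation test). Between 0 and 18 of all genes were called under the alternatives. The 95% intervals for Hdac1 ran from -0.26 to 0.25 for the drug over both genotypes and from -0.44 to 0.57 for the interaction. They rest on 3 to 5 libraries a group and include the low value of wild-type TAK-418 library 1. The genotype difference of Hdac1, 0.19 in the main fit, ran from 0.12 to 0.23 when each library was left out in turn.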

Other observations

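Hmg20b had a second form with a longer first exon, which ran 134 bases further at its downstream end, and both boundaries are annotated. This form was noticed after its values were seen, so no test was made. Its share of Hmg20b abundance was 0%, 5.0% and 0% in the vehicle wild types, 37.6%, 17.8% and 14.5% in the vehicle mutants, 24.3%, 24.6%, 11.0%, 27.5% and 14.7% in the treated wild types and 9.63%, 28.9% and 0% in the treated mutants. The vehicle wild types lay below all vehicle mutants and all treated wild types, and 1 treated mutant also had none of this form. In each library with 0%, only 1 Hmg20b transcript was assembled. Absence from the assembled transcripts is no measure of the RNA, so these zeros do not show that the form was missing.

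A cassette exon of Phf21a, of 252 bases at chr2:92326913-92327164, was included in all 14 libraries and also skipped in 3. A 21-base exon of Kdm1b at chr13:47057677-47057697, found in 2 libraries, is not in the annotation used.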
